A study of Mus musculus with 10 samples.

Results

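The sodium pump and potassium channels of the renal tubule are described here through 7 genes, Atp1b1, Kcnj10, Kcnj15, Kcnj16, Kcnma1, Kcnq1 and Kcne1, out of 30895 genes measured in mouse kidney. Each gene was taken by its symbol in the deposited log2 table, and each had 1 feature on the array. The study set 5 kidneys of mice treated with cyclosporin A (CsA), a calcineurin inhibitor used as an immunosuppressant, against 5 from mice given its solvent, cremophore, called vehicle here. CsA was injected under the skin once a day for 7 days at 60 mg/kg, and all mice ate chow with 0.05% sodium. The mice were 10 to 12 weeks old and of C57BL/6 background, from a line in which doxycycline can induce a deletion of Vhl in Pax8-expressing cells. The labels do not say whether these animals received doxycycline. Vhl differed by -0.00 ± 0.09 log2 units (SE) between the groups (limma adjusted p = 0.993), but a deletion shared by both groups would not show in that difference. RNA of halved kidneys was read on Affymetrix Mouse Gene ST 2.0 arrays, 1 per sample, and precision is limited by their number. Whether every sample came from its own animal is not stated in the labels, so the p-values reflect no more than the spread among these samples.

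Xist, expressed from the inactive X chromosome, stood at 9.21 and 9.15 log2 units in CsA replicates 1 and 2, whose 4 Y-linked transcripts averaged 3.90 and 4.03. No other array exceeded 4.82 for Xist or fell short of 6.91 for the Y-linked mean. By these transcripts 2 of the CsA samples were female and 3 male, while all 5 vehicle samples were male, a split the labels do not give. With no female vehicle sample, sex and treatment cannot be told apart for those 2 arrays, and results are given for all 10 arrays and for the 8 male arrays, called males only. Array medians lay between 5.14 and 5.21 log2 units. In limma's fit 6.49% of all genes had an adjusted p under 0.05, 2.95% higher and 3.54% lower with CsA. In males only it was 3.17%, 1.53% higher and 1.64% lower. Such genes are said here to have risen or fallen. The median difference over all genes was 0.01 log2 units over all arrays.

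The sodium pump sits in the basolateral membrane of tubule cells, expels sodium into the interstitium and brings potassium in. Basolateral potassium channels let that potassium leave again, which keeps the pump supplied and sets the membrane voltage on which salt transport depends. Kcnj10 encodes Kir4.1 and Kcnj16 encodes Kir5.1, which assemble into the main basolateral potassium channel of the distal convoluted tubule, where it senses plasma potassium. Kcnj15 encodes Kir4.2, which pairs with Kir5.1 in the proximal tubule. Not all 7 products are basolateral. Kcnma1 encodes the pore of the BK channel, which secretes potassium into the lumen of the distal nephron, and Kcnq1 with its accessory subunit Kcne1 forms a luminal channel of the proximal tubule.

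Among the 7 genes Kcnj16 alone passed the threshold, with 1.26-fold lower signal in CsA kidneys. Kcnj15 and Kcnq1 had the next smallest p-values and missed it, Kcnj15 with lower and Kcnq1 with higher signal. The pump subunit gene Atp1b1 and the Kir4.1 gene Kcnj10 differed by less than 0.1 log2 units. Over all arrays 1 of 7 genes was called, 0 higher and 1 lower, against 6.49% of all genes, and in males only limma called 0 of 7, against 3.17%. With all 10 arrays 3 of the 7 genes reached an unadjusted p under 0.05, as did 20.8% of all genes, and in males only 3 did, as did 18.8% of all genes. The groups did not overlap for 2 of the 7 over all arrays, as for 9.09% of all genes, and for 4 in males only, as for 15.1% of all genes. The median difference of the 7 genes was 0.07 over all arrays and -0.01 in males only.

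**Figure D1:**
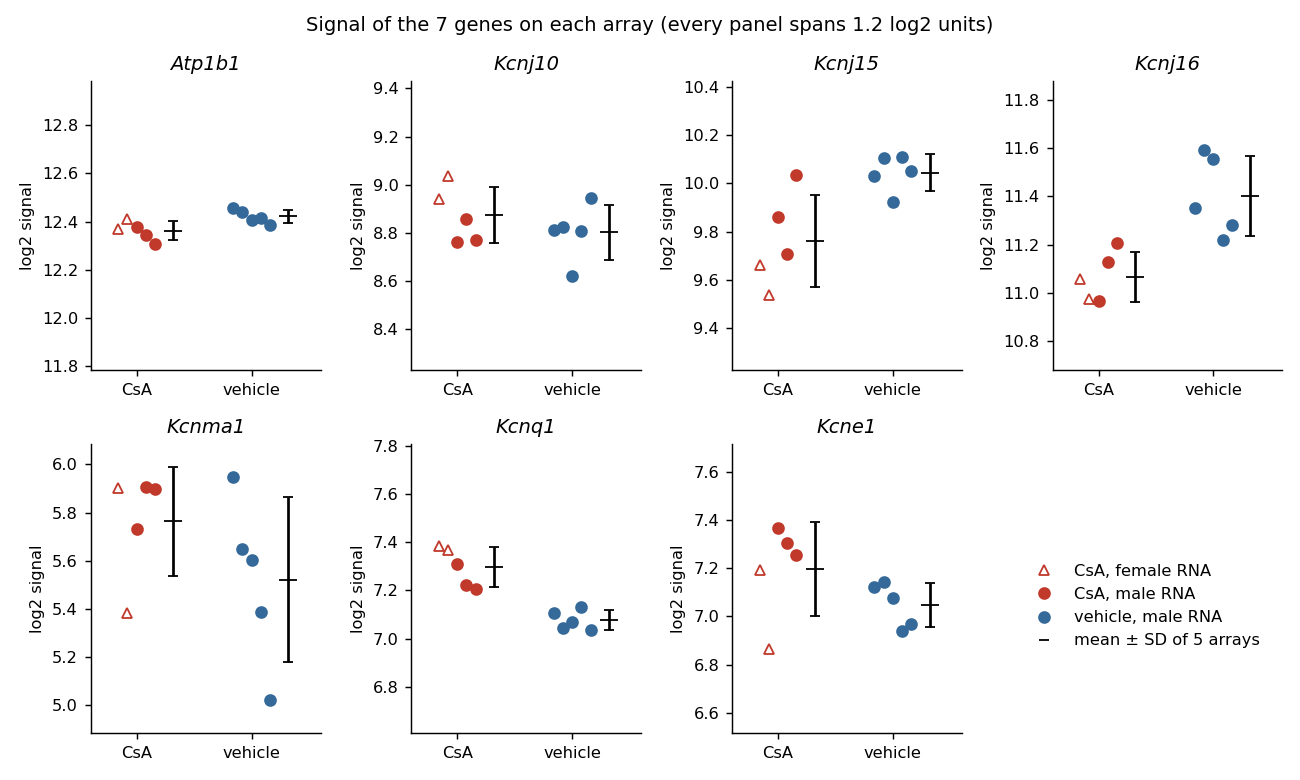
Log2 signal of the 7 genes on each array, with CsA left of vehicle. Open triangles are CsA replicates 1 and 2 (female RNA), filled circles male RNA, bars the mean ± SD of 5 arrays, and every panel spans 1.2 log2 units. The groups are apart for Kcnj16 (CsA at most 11.21, vehicle at least 11.22) and Kcnq1 (CsA at least 7.21, vehicle at most 7.13).

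Kcnj16 gave log2 signals of 11.06, 10.98, 10.97, 11.13 and 11.21 in CsA replicates 1 to 5, against 11.35, 11.59, 11.56, 11.22 and 11.28 in vehicle replicates 1 to 5. Every CsA array lay below every vehicle array, but the highest CsA value and the lowest vehicle value nearly touched. The means were 11.07 ± 0.10 with CsA and 11.40 ± 0.17 with vehicle (SD, n = 5 each; limma log2 difference -0.33 ± 0.09 (SE), adjusted p = 0.0430). In males only the groups again did not overlap and the difference was -0.30 ± 0.11 (SE), without passing (limma adjusted p = 0.164). The female arrays, at 11.06 and 10.98, lay within the range of the male CsA arrays, 10.97 to 11.21. The call rested on most arrays: it was lost without any 1 of CsA replicates 1, 2, 3 and 4 (limma adjusted p = 0.0723, 0.0988, 0.0927 and 0.0632) or of vehicle replicates 1, 2 and 3 (0.0726, 0.102 and 0.105), while the log2 difference stayed between -0.38 and -0.29. In bulk tissue, fewer cells of a type and less RNA per cell cannot be told apart.

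Kcnj15 gave 9.66, 9.54, 9.86, 9.71 and 10.03 in CsA replicates 1 to 5, against 10.03, 10.11, 9.92, 10.11 and 10.05 in vehicle replicates 1 to 5. The female arrays were the lowest, and CsA replicate 5 lay among the vehicle arrays. The difference was -0.28 ± 0.09 (SE; 95% interval -0.48 to -0.09), which missed the threshold (limma adjusted p = 0.0894). In males only it was -0.18 ± 0.09 (SE; 95% interval -0.37 to 0.02, limma adjusted p = 0.315). Of 10 fits that left out 1 array, the gene passed only in that without CsA replicate 5 (-0.35, limma adjusted p = 0.0309).

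Kcnj10 gave 8.94, 9.04, 8.76, 8.86 and 8.77 in CsA replicates 1 to 5, against 8.81, 8.82, 8.62, 8.81 and 8.94 in vehicle replicates 1 to 5. The groups overlapped throughout, with the 2 female arrays at the top of the CsA values. The difference was 0.07 ± 0.08 (SE; 95% interval -0.10 to 0.24, limma adjusted p = 0.666) with all 10 arrays, against -0.01 ± 0.08 among the male arrays (95% interval -0.19 to 0.18), so its sign depended on the female arrays.

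Since Kir5.1 conducts mainly when assembled with Kir4.1 or Kir4.2, it was asked whether the genes of these channels changed unequally. Kir4.1 and Kir4.2 are alternative partners of Kir5.1 rather than partners of each other. The question was put to the log2 difference between 2 genes within each array, whose change is independent of any shift common to both. Kcnj16 minus Kcnj10 was 2.11, 1.94, 2.20, 2.27 and 2.43 in CsA replicates 1 to 5, against 2.54, 2.77, 2.93, 2.41 and 2.34 in vehicle replicates 1 to 5. CsA replicate 5 overlapped the vehicle arrays. The mean was 0.41 lower with CsA (-0.41 ± 0.14 (SE), n = 5 each; 2-sided exact permutation p = 0.0238, adjusted p = 0.0635 over the 4 pairs tested). Kcnj15 minus Kcnj10 differed by -0.36 ± 0.14 (SE; exact permutation p = 0.0317, adjusted p = 0.0635). Kcnj16 and Kcnj15, partners in the proximal tubule, differed by -0.33 and -0.28 and were not tested against each other. The smallest p that this design allows is 0.00794. Neither pair passed after adjustment. In males only the differences were -0.30 ± 0.13 and -0.17 ± 0.12 (SE; exact permutation p = 0.107 and 0.143, adjusted p = 0.238 for both). The smallest p possible there is 0.0357 before adjustment, so these pairs alone, even both at that p, could not have passed after adjustment over 4 pairs. Of 10 tests that each left out 1 of all 10 arrays, each pair passed only without CsA replicate 5 (-0.47 and -0.45, exact permutation adjusted p = 0.0317 for both). That is the male CsA array with the highest Kcnj15 and Kcnj16, and both female arrays stayed in that test. In the other tests of this kind neither pair passed, with adjusted p up to 0.127.

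**Figure D2:**
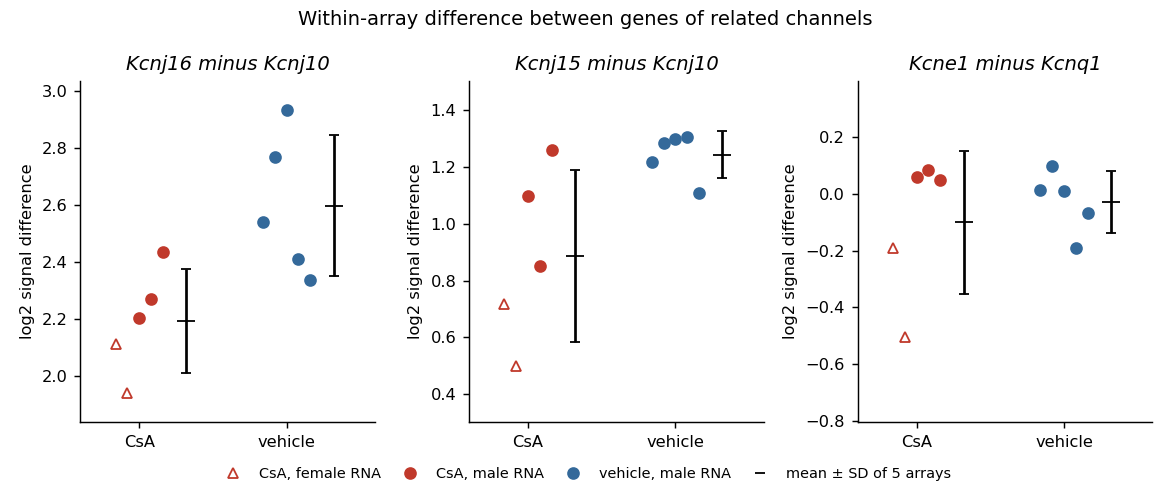
Log2 signal of 1 gene minus that of another within each array, with CsA left of vehicle, symbols as in the plot of signals, bars the mean ± SD of 5 arrays. Only the shift between groups is meaningful, since signals of different probes are not on 1 scale. For Kcnj16 minus Kcnj10 the CsA arrays average 2.19 and the vehicle arrays 2.60, while for Kcne1 minus Kcnq1 they average -0.10 and -0.03.

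The upstream sequences of Kcnj16 and Kcnj15 are shown because these channel genes had the largest negative differences among the 7. They are the 250 bases before the RefSeq start (GRCm38.p6), both on the + strand and printed 5′ to 3′, at chr11:110967783-110968032 for the first of 4 Kcnj16 starts and at chr16:95257308-95257557 for Kcnj15. Capitals mark GGAAA, the core letters read by NFAT factors that calcineurin activates, searched on both strands.
Kcnj16: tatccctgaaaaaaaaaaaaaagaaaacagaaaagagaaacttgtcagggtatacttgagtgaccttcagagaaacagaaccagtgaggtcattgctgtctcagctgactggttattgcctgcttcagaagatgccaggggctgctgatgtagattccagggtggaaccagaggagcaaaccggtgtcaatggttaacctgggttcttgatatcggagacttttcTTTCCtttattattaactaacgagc
Kcnj15: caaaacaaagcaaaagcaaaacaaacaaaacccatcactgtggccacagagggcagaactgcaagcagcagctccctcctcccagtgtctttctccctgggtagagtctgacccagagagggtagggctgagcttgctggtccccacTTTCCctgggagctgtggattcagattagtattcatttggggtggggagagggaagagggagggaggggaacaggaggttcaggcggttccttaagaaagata
Both windows held 1 GGAAA on the minus strand, which began 25 bases before the start in Kcnj16 and 103 bases before it in Kcnj15. Of 32851 such windows of all genes, 55.6% held GGAAA. The windows of the other 3 Kcnj16 starts each held GGAAA. The windows of Atp1b1, Kcnj10 and Kcnma1 held none, and 8 windows of 5 of the 7 genes were in the table (Kcnq1 and Kcne1 were not matched). A match is a run of letters and not a shown binding site, and which Kcnj16 start these kidneys used was not measured.

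Kcnq1 gave 7.38, 7.37, 7.31, 7.22 and 7.21 in CsA replicates 1 to 5, against 7.11, 7.05, 7.07, 7.13 and 7.04 in vehicle replicates 1 to 5. Every CsA array lay above every vehicle array, and the 2 female arrays were the highest. Means of 7.30 ± 0.08 with CsA and 7.08 ± 0.04 with vehicle (SD, n = 5 each) gave a difference of 0.22 ± 0.06 (SE; 95% interval 0.09 to 0.35) that narrowly missed the threshold (limma adjusted p = 0.0549). In males only the groups still did not overlap, with a difference of 0.17 ± 0.06 (SE; 95% interval 0.02 to 0.31, limma adjusted p = 0.201). The noncoding transcript Kcnq1ot1 is made from within the Kcnq1 gene on the opposite strand, and it differed by 0.11 ± 0.07 (SE; limma adjusted p = 0.377). Whether its RNA adds to the Kcnq1 signal was not tested.

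Kcne1, whose product slows the gating of the Kcnq1 channel, gave 7.19, 6.87, 7.37, 7.31 and 7.25 in CsA replicates 1 to 5, against 7.12, 7.14, 7.08, 6.94 and 6.97 in vehicle replicates 1 to 5. CsA replicate 2, a female array, was the lowest of all 10, and the other 4 CsA arrays lay above every vehicle array. The difference was 0.15 ± 0.09 (SE; 95% interval -0.06 to 0.35, limma adjusted p = 0.414). In males only the groups did not overlap, with 7.31 ± 0.06 in the 3 CsA samples and 7.05 ± 0.09 in the 5 vehicle samples (SD), and the difference was 0.26 ± 0.08 (SE; limma adjusted p = 0.0989). Kcne1 had the smallest males-only p of the 7 genes. The change of Kcne1 minus that of Kcnq1 was -0.07 ± 0.12 (SE; exact permutation p = 0.667, adjusted p = 0.786) with all 10 arrays, and it was 0.09 ± 0.05 among the male arrays (exact permutation adjusted p = 0.238).

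Kcnma1 gave 5.90, 5.38, 5.73, 5.91 and 5.90 in CsA replicates 1 to 5, against 5.95, 5.65, 5.60, 5.39 and 5.02 in vehicle replicates 1 to 5. No CsA array lay outside the vehicle range, and the vehicle arrays spread more for this gene than for the other 6. These signals lie near the array medians, where background adds to the signal. The difference was 0.24 ± 0.16 (SE; 95% interval -0.10 to 0.59, limma adjusted p = 0.426), and 0.32 ± 0.17 in males only (adjusted p = 0.355). Without vehicle replicate 5, the lowest array, it was 0.12.

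The BK channel is tuned by accessory subunits, and of these Lrrc52, which encodes a gamma subunit, showed the largest change of any gene in the fixed lists of pump, channel and regulator genes. Lrrc52 gave 5.20, 5.24, 5.07, 5.28 and 5.02 in CsA replicates 1 to 5, against 6.19, 6.17, 5.85, 6.26 and 6.11 in vehicle replicates 1 to 5. It fell 1.94-fold (limma log2 difference -0.95 ± 0.09 (SE), adjusted p = 0.000238), with -0.99 in males only (adjusted p = 0.00438). It passed in all 10 fits that left out 1 array. Its CsA signals lie near the array medians. Among 15 calcium-activated potassium channel and BK partner genes 0 rose and 1 fell, and in males only again 0 rose and 1 fell. The median difference was 0.06. Kcnmb1 and Kcnmb4, the genes of beta subunits of smooth muscle and of intercalated cells, differed by -0.08 ± 0.10 and 0.05 ± 0.10 (SE; limma adjusted p = 0.711 and 0.834).

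Atp1b1, the beta subunit that carries the pump to the membrane, gave 12.37, 12.41, 12.38, 12.35 and 12.31 in CsA replicates 1 to 5, against 12.46, 12.44, 12.41, 12.42 and 12.39 in vehicle replicates 1 to 5. CsA replicate 2 overlapped the vehicle arrays, and in males only the groups were apart. The difference was -0.06 ± 0.05 (SE; 95% interval -0.18 to 0.06, limma adjusted p = 0.595), and -0.08 ± 0.06 in males only (adjusted p = 0.546).

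Several other genes of the pump passed the threshold. Of 10 genes for other subunits and for the FXYD proteins, small membrane proteins that adjust pump activity, 3 rose and 1 fell, against 2.95% and 3.54% of all genes. In males only 2 rose and 0 fell. The list's median difference was 0.24 over all arrays and 0.25 in males only, against 0.01 and 0.00 for all genes. All 7 FXYD genes had a positive difference.

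Fxyd2, the gamma subunit of the tubular pump, gave 9.97, 9.98, 9.91, 10.03 and 9.92 in CsA replicates 1 to 5, against 9.63, 9.70, 9.61, 9.67 and 9.67 in vehicle replicates 1 to 5. The groups were well apart, and it rose 1.24-fold (limma log2 difference 0.31 ± 0.06 (SE), adjusted p = 0.00904), with 0.30 in males only (adjusted p = 0.0437). It passed in all 10 fits that left out 1 array. Fxyd4, the channel-inducing factor of the collecting duct, was 1.35-fold higher (0.43 ± 0.11 (SE), limma adjusted p = 0.0327), and 0.46 higher in males only without passing (adjusted p = 0.0615). Its groups overlapped over all arrays, with CsA replicate 2 at 7.21 and vehicle replicate 2 at 7.32, but not in males only. Its call was lost without CsA replicate 1, 4 or 5 (limma adjusted p = 0.0664, 0.0686 and 0.0694) or vehicle replicate 1, 3, 4 or 5 (0.0579, 0.0797, 0.0772 and 0.0609).

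Fxyd1, phospholemman, was 1.29-fold higher (0.36 ± 0.08 (SE), limma adjusted p = 0.0240), and 0.30 higher in males only (adjusted p = 0.101). It was lost without CsA replicate 2 (0.0504) or vehicle replicate 2 or 3 (0.0622 and 0.0501). Fxyd3 missed over all arrays (0.29 ± 0.09 (SE), limma adjusted p = 0.0639) but passed among the male arrays (0.35, adjusted p = 0.0454). Its means of 4.99 with CsA and 4.69 with vehicle lie below the array medians. Fxyd5, Fxyd6 and Fxyd7 differed by 0.22, 0.18 and 0.08 without passing.

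Atp1b3, another beta subunit, was the gene of this list that fell, with 8.80 ± 0.08 under CsA and 9.05 ± 0.07 under vehicle (SD, n = 5 each; limma log2 difference -0.25 ± 0.06 (SE), adjusted p = 0.0430), with groups that did not overlap. The difference was -0.28 in males only (adjusted p = 0.0666). Its call was lost in 9 of 10 fits that left out 1 array, all but that without CsA replicate 1, with limma adjusted p between 0.0611 and 0.106. Atp1a4, known from testis, and Atp1b2, known from glia, differed by 0.26 and 0.10 without passing.

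**Figure D3:**
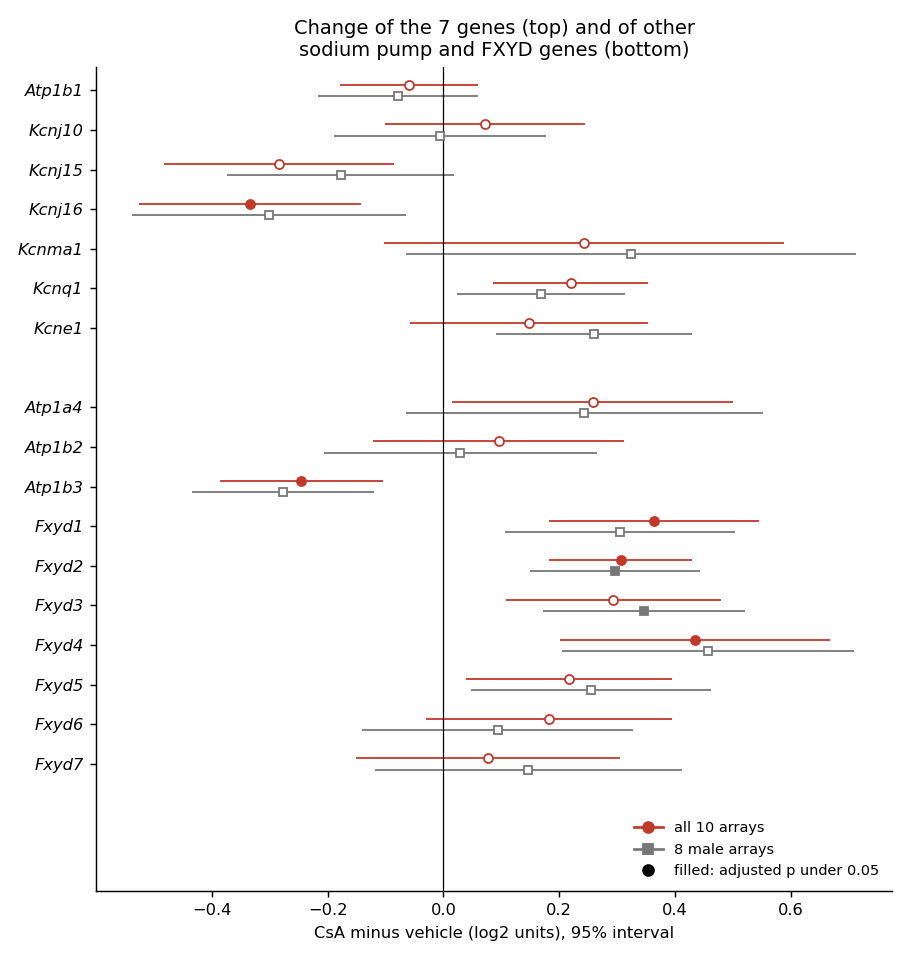
CsA minus vehicle log2 difference with its 95% interval for the 7 genes (top) and 10 other pump and FXYD genes (bottom), over all 10 arrays (red circles) and males only (grey squares), filled where the adjusted p is under 0.05. Kcnj16 is filled at -0.33 over all arrays and open at -0.30 in males only, while Fxyd2 is filled in both.

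Among the other potassium channel genes few changes passed. Of 12 other inward rectifier genes limma called 0 over all arrays and 0 in males only, with 0 at an unadjusted p under 0.05 in each, and Kcnj1, the luminal ROMK channel, differed by 0.06 ± 0.08 (SE; adjusted p = 0.715). Of 7 other KCNQ and KCNE genes limma likewise called 0, with 0 at an unadjusted p under 0.05. Of 14 K2P channel genes 0 rose and 1 fell, and in males only 1 rose and 0 fell. The gene that fell was Kcnk5, the TASK2 channel of the proximal tubule basolateral membrane, with 9.60 ± 0.37 under CsA and 10.28 ± 0.18 under vehicle (SD, n = 5 each; limma log2 difference -0.67 ± 0.16 (SE), adjusted p = 0.0275). It did not pass in males only, where the difference was -0.43 (adjusted p = 0.0586). The 2 female arrays were the lowest of all 10. Its call was also lost without CsA replicate 1 (limma adjusted p = 0.0581) or vehicle replicate 1, 2 or 4 (0.0653, 0.0647 and 0.0671). The gene that rose in males only was Kcnk12 (0.34, limma adjusted p = 0.0387), whose signals of 3.62 to 4.32 lie below the array medians.

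Of 10 sodium and chloride transport genes coupled to the pump 1 rose and 0 fell, and in males only 0 rose and 1 fell. Bsnd, which encodes the chloride channel subunit barttin, was 1.32-fold higher, at 8.34 ± 0.16 with CsA and 7.93 ± 0.10 with vehicle (SD, n = 5 each; limma adjusted p = 0.0165), and its groups did not overlap. It passed in all 10 fits that left out 1 array, but not in males only (0.30, limma adjusted p = 0.0865). Slc12a3, the sodium chloride cotransporter whose activity Kir4.1/Kir5.1 controls, differed by -0.32 ± 0.09 (SE; limma adjusted p = 0.0669), a size like that of Kcnj16, and passed in males only (-0.43, adjusted p = 0.0306).

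Of 11 regulators of distal potassium handling 1 rose and 3 fell, and in males only 0 rose and 2 fell. Wnk1, which encodes a WNK kinase, fell 1.36-fold, and Klhl3, which targets WNK kinases for degradation, fell 1.42-fold (limma adjusted p = 0.00268 and 0.00759). Both also fell in males only (limma adjusted p = 0.0108 and 0.0120). Wnk4, the gene of another WNK kinase, did not pass (-0.17 ± 0.09 (SE), limma adjusted p = 0.326), nor did it in males only (-0.31, adjusted p = 0.0622). Cul3, the scaffold of the KLHL3 ligase, was 1.23-fold lower (limma adjusted p = 0.0212), and lost its call in males only (adjusted p = 0.0951) and without CsA replicate 2 or vehicle replicate 3 or 4 (0.0515, 0.0501 and 0.0567). Casr, the calcium-sensing receptor, was 1.30-fold higher (limma adjusted p = 0.0228), and lost its call in males only (adjusted p = 0.0983) and without CsA replicate 2 or vehicle replicate 1, 2 or 4 (0.0588, 0.0583, 0.0524 and 0.0518). Over the 79 genes of all 7 lists, limma called 11 over all arrays, against 6.49% of all genes, and 7 in males only, against 3.17%. It called 7, 7, 7 and 6 without vehicle replicate 1, 2, 3 and 4 in turn.

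**Figure D4:**
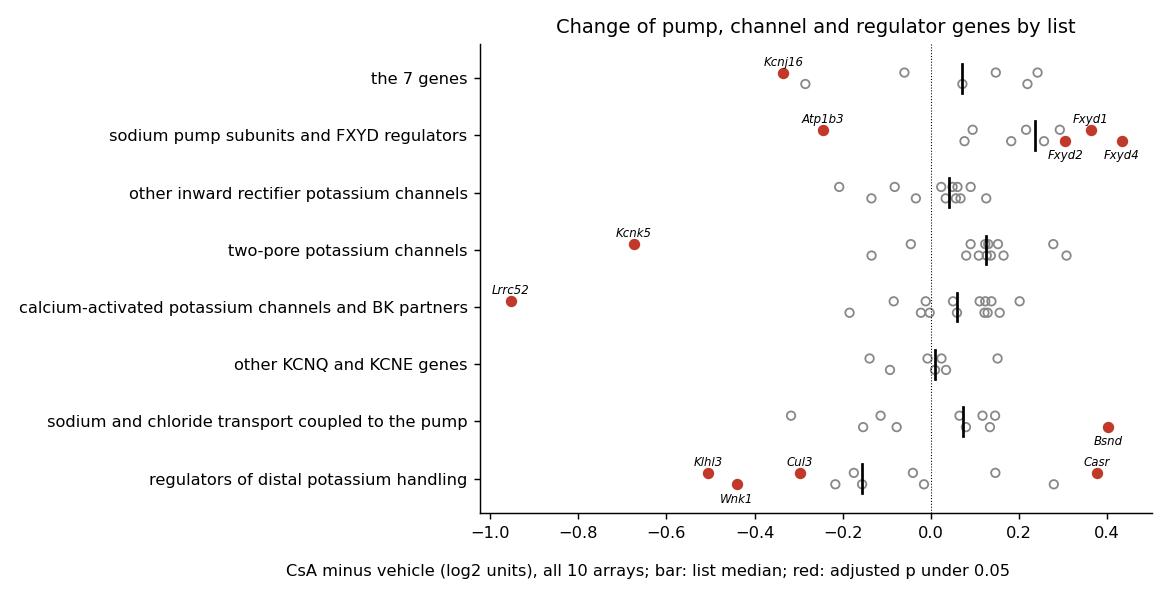
CsA minus vehicle log2 difference over all 10 arrays for each gene of the 7 genes and of the 7 lists of pump, channel, transport and regulator genes. Red points have an adjusted p under 0.05, and bars mark list medians, which lie between -0.16 for the regulators of distal potassium handling and 0.24 for the pump and FXYD genes.

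Markers of the cell types that hold these channels were read beside them. Of 10 distal convoluted tubule markers 7 fell and 0 rose, with list means of 7.34 to 7.52 log2 units on CsA arrays and 8.19 to 8.41 on vehicle arrays. In males only 8 fell. Calb1 and Pvalb, calcium-binding proteins of that segment, differed by -2.12 and -1.43, and Sall3, whose mean signal of 5.24 lies near the array medians, by -0.02. The part of this segment's RNA in the Kcnj16 result was not tested. Wnk1, Klhl3 and Slc12a3 stand in this list as well as in the lists above. Of 10 thick ascending limb markers 3 rose and 0 fell, among them Bsnd and Casr (list means 9.56 to 9.80 in CsA, 9.50 to 9.59 in vehicle), and in males only limma called 0, with 4 at an unadjusted p under 0.05.

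Of 10 proximal tubule markers 1 rose and 0 fell (list means 11.51 to 11.59 in CsA, 11.48 to 11.53 in vehicle), and in males only limma called 0. Over all arrays an unadjusted p under 0.05 was reached by 3 of the 10 markers, as by 20.8% of all genes, and 8 of the 10 differences were positive. Slc22a6 differed by -0.37 without passing (limma adjusted p = 0.182), and its groups did not overlap. Its female arrays, at 10.86 and 10.73, lay below the male CsA arrays, at 11.49 to 11.51, and the males-only difference was -0.09. Of the channel genes known from that segment, Kcnj15 differed by -0.28 and Kcnk5 by -0.67, while Kcnq1 differed by 0.22 and Kcne1 by 0.15. Of 10 principal cell markers 1 rose, Fxyd4 itself (list means 7.87 to 8.17 in CsA, 7.76 to 8.005 in vehicle), and in males only limma called 0. Of 10 intercalated cell markers limma called 0, with 2 at an unadjusted p under 0.05 (8.04 to 8.26 in CsA, 8.09 to 8.19 in vehicle). Of 10 smooth muscle and pericyte markers, cells that also express Kcnma1, limma called 0, with 4 at an unadjusted p under 0.05 (6.94 to 7.19 in CsA, 7.05 to 7.20 in vehicle). Of 10 endothelial markers limma called 0, with 5 at an unadjusted p under 0.05 (8.14 to 8.44 in CsA, 8.18 to 8.34 in vehicle), and in males only 1 fell, Ehd3 (-0.46, limma adjusted p = 0.0249).

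Macrophage and injury markers rose, 7 of 10 in each list and 0 fell. In males only 7 macrophage and 5 injury markers rose, and 0 fell. Macrophage list means were 6.69 to 7.01 in CsA and 6.12 to 6.33 in vehicle kidneys, and injury list means 7.26 to 7.95 in CsA and 6.65 to 6.83 in vehicle kidneys. Adipocyte markers (1 of 10 rose; 5.50 to 6.15 in CsA, 5.25 to 6.11 in vehicle) and erythroid markers (limma called 0 of 6, with 2 at an unadjusted p under 0.05; 5.95 to 6.74 in CsA, 6.09 to 6.57 in vehicle) overlapped between groups in their list means. In males only 2 adipocyte and 2 erythroid markers rose. The part of these cells and of injury in the changes of Fxyd1, Fxyd3 and the other genes was not tested.

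The genes whose pattern over the 10 arrays lay closest to that of Kcnj16 were Ift57, Rnmt and Thap6. After each gene was centred on its own mean, their root mean square distances from Kcnj16 were 0.05, 0.08 and 0.08 log2 units, against a median of 0.25 over all genes and a spread of 0.21 of Kcnj16 itself. Closeness includes the difference between groups, which was -0.31, -0.32 and -0.32 for these genes and -0.33 for Kcnj16. Ift57 encodes an intraflagellar transport protein of cilia and Rnmt the enzyme that methylates the mRNA cap. In males only they differed by -0.25, -0.28 and -0.26, and none passed (limma adjusted p = 0.198, 0.102 and 0.184).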

How the data were processed

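From 10 kidney samples, 200 ng of total RNA each was amplified and hybridised, per the labels' protocols. The authors deposited log2 expression, with a value for every feature on each array. RMA and Partek 6.4 are named, without roles, in the submitters' processing notes, and the annotation version and build are not given in the sources used here. Both deposited tables held the same 41345 features and identical values, so an alternative that would have set one against the other was dropped.

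Symbols were updated through RefSeq (GRCm38.p6), with 8874 features unnamed, and each gene was represented by its brightest feature, which left 30895 genes with no filter. CsA minus vehicle was fitted in limma 3.58.1 (R 4.3.3) by lmFit and moderated by eBayes, without covariates and 2-sided, with Benjamini-Hochberg adjustment over all genes and a threshold of 0.05. Pairs of genes were compared by exact permutation over samples in SciPy 1.17.1, 2-sided, with adjustment over 4 pairs, of which 3 are reported. Males only means the 8 arrays with Y-linked transcripts. The comparison of all 10 arrays was tested on simulated data drawn from the measured mean and the eBayes-moderated SD of each of the 30895 genes. It recovered 64% of changes of 0.5 log2 units and 97% of changes of 1 log2 unit, with 8 false calls among 169. Noise was independent between genes there, and most changes described here are smaller. Only 169 genes were called there, against 2004 in the measured data, so a call needed a smaller unadjusted p there. The recovery shares therefore do not carry over directly.

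The 7 genes, the gene lists and the alternatives were chosen with earlier results of these data known. Genes named are the 7 members, all pump and FXYD genes, called genes of each list (up to 6) and the 3 genes closest in pattern to a called member. Others were chosen after their values were seen: Slc12a3, Wnk4, Kcnj1, Kcnk12, Ehd3, Kcnmb1, Kcnmb4, Kcnq1ot1, Vhl and the markers named. A few genes of the lists and 1 pair are not reported here, and list counts leave those genes out. Promoter sequences are RefSeq's, build GRCm38.p6.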

Additional observations from a re-analysis of the deposited data

Results flagged for a closer look

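The 7 genes, the pump and FXYD genes and the genes called over all arrays in the other channel, transport and regulator lists were checked for outliers. In these 48 groups of 5 arrays an array far from the other 4 was sought, which chance alone gives in about 1 in 20 groups. The only one found was Fxyd3, which was low in CsA replicate 2 (4.72), one of the 2 female arrays.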

How the results depend on the processing

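Over all arrays limma called 1 of the 7 genes. The count was 2 among genes above the 25th percentile of signal, 3 above the median, 2 after renewed quantile normalisation, 3 with a trended and robust eBayes, and 0 after centring on array medians, with all features, in males only and with female RNA as a covariate. It ranged between 0 and 2 without 1 array each. Kcnj16 lost its call after centring (-0.34, adjusted p = 0.0507), with all features (-0.33, 0.0657), in males only (-0.30, 0.164) and with the female covariate (-0.30, 0.151), and ranged between -0.38 and -0.29 without 1 array each. Kcnq1 (0.22) passed under both filters (0.0315 and 0.0145) and with the trended eBayes (0.0265), and at 0.24 after quantile normalisation (0.0495). Kcnj15 (-0.28) passed above the median (0.0354) and with the trended eBayes (0.0350), and ranged between -0.35 and -0.23. Kcnj10 turned to -0.0053 in males only and with the female covariate. The 11 calls among 79 list genes became 7 in males only, 5 with the female covariate and 6 to 10 without 1 array each, with 7, 7, 7 and 6 without vehicle replicates 1, 2, 3 and 4. In males only Kcne1 minus Kcnq1 turned to 0.092. Without 1 array each the pairs ranged between -0.47 and -0.32 (Kcnj16 minus Kcnj10), -0.45 and -0.26 (Kcnj15 minus Kcnj10) and -0.12 and 0.029 (Kcne1 minus Kcnq1), and Fxyd7 between -0.011 and 0.13, negative without CsA replicate 5. The males-only and female-covariate fits share 1 coefficient by construction, and filters test fewer genes; other causes were not tested. No paired analysis was possible because the labels give no replicate numbers, and those used here follow accession order.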
